A study of Mus musculus with 7 samples.

Results

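The regions described here are distal intergenic open chromatin regions (OCRs) of HPC7, a mouse hematopoietic progenitor cell line that grows in stem cell factor. They were chosen by measured values and by position: peaks of 7 libraries were merged wherever they overlapped, and a merged OCR was kept when it lay on an autosome, had a peak in every library, was under 1500 bp wide, lay outside every annotated gene and was more than 50 kb from any transcript start. Of 144931 merged OCRs, 66979 had a peak in all 7 libraries and 1552 met every part of the rule. The 7 bulk ATAC-seq libraries, HPC7-1, HPC7-2 and HPC7-4 to HPC7-8, form 1 group of HPC7 cells kept in medium with serum and stem cell factor. According to the study, the libraries came from independent cultures. Presence in every library and width are therefore properties of the choice and are given below as descriptions, with no test. HPC7 is 1 cell line, so the spread between libraries does not include differences between animals.

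Open chromatin far from genes mostly marks distal regulatory elements, stretches of DNA where transcription factors displace nucleosomes and from which promoters can be controlled over long distances. In blood progenitors such elements are known to be bound by combinations of ETS factors, RUNX factors, GATA factors and E-box binding factors. CTCF, a zinc finger protein that anchors chromatin loops together with cohesin, holds a further set of open sites. In ATAC-seq the Tn5 transposase cuts accessible DNA, and the summit of a peak is the base where most reads pile up.

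Sequences are shown for 2 of the 3 most intense distal OCRs and, for each of 5 motifs, for the most intense one with that motif that was not already taken for another, because they let the values below be read against the bases under a summit. Each covers 100 bp to either side of the median summit of the 7 libraries, from the forward strand of RefSeq's GRCm38 (mm10), in lower case. Capitals mark matches to the ETS, RUNX, GATA, AP-1 and CTCF motifs, and matches to other motifs are left unmarked. The first pair, chr17:59967218-59968024 and chr4:7391604-7391970, held none of these 5. The window of chr8:100795961-100797095 held an ETS match (AGGAAGT) whose first base lay 91 bp before the summit on this strand and a GATA match (AGATAAG, here read on the other strand) 6 bp after it. The window of chr5:40882245-40883707 held a RUNX match (TGTGGTT) and an AP-1 match (TGANTCA), and that of chr8:28264690-28265691 a GATA and a RUNX match, both on the other strand. The window of chr1:41449834-41450592 held GATA and AP-1, and that of chr3:115660744-115661628 the core of the CTCF consensus, which began 72 bp before the summit.
chr17:59967514-59967714: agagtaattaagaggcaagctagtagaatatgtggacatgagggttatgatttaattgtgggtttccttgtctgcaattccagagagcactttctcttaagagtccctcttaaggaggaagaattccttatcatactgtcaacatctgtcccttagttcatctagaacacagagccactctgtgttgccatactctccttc
chr4:7391678-7391878: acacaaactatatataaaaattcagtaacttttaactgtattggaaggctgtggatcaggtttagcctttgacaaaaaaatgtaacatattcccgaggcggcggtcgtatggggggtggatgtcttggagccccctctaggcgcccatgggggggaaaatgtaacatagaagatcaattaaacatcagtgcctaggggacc
chr8:100796696-100796896: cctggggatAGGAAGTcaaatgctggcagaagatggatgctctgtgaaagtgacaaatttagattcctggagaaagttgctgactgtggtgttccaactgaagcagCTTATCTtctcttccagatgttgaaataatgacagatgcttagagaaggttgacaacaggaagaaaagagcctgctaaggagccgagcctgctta
chr5:40883068-40883268: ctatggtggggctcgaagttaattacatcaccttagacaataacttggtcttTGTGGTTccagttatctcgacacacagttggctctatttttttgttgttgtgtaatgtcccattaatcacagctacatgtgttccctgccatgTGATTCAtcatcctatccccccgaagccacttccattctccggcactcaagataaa
chr8:28265258-28265458: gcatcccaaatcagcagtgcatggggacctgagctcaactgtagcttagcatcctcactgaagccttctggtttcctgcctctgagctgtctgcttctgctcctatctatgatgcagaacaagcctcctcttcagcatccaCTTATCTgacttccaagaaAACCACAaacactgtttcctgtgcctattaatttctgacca
chr1:41450099-41450299: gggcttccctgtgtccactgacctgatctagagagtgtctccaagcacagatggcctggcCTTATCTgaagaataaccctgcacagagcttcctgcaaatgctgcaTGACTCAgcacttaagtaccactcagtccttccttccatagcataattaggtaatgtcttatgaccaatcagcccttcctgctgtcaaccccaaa
chr3:115661180-115661380: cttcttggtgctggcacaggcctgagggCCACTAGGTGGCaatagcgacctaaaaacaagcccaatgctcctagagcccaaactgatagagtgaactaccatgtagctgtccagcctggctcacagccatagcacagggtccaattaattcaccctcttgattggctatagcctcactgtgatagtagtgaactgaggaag

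The libraries held between 84593 peaks (HPC7-6) and 132852 peaks (HPC7-1). The reported intensity of a peak is its fold enrichment, the reads at the summit divided by a background, with 1 added to each. The background was 1 number per library, between 4.44 and 20.4 reads. At the summits of the distal OCRs the median number of reads ran from 37 (HPC7-6) to 181 (HPC7-1), so HPC7-1 gives the most precise values. Promoters of 14 of 14 hematopoietic progenitor markers had an OCR in all 7 libraries, and those of 4 T cell markers (Cd3e, Cd3g, Cd4, Cd8a) and of the B cell genes Cd79a, Pax5 and Ebf1 had none in any. Of 4 markers each, 2 erythroid, 1 liver and 2 neuron promoters had an OCR in all 7, and the others (Hbb-bs, Hba-a1, Alb, Ttr, Hnf4a, Syt1 and Neurod1) had none in any. Peaks carry names with a prefix, VD for 3 of the libraries (HPC7-1, HPC7-2, HPC7-4) and EtOH for the other 4. What the prefixes mean is unknown here, and they did not serve as conditions.

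The distal OCRs ranged widely in intensity. The mean over libraries ran from 3.35 to 135.7, with quartiles at 5.97, 8.16 and 14.7. Most were of modest height: 942 (60.7%) had a mean under 10, 265 (17.1%) reached 20 and 51 (3.29%) reached 50. In the order of the library numbers, which skip the third, the median fold enrichment was 8.52, 7.72, 9.11, 8.18, 5.95, 8.30 and 10.5, which averages 8.32 ± 1.38 (SD, n = 7). HPC7-6 was the lowest library and HPC7-8 the highest, and the libraries of both prefixes overlapped. Relative to all peaks of its own library, the median distal OCR stood between the 48.9th percentile (HPC7-6) and the 65.9th (HPC7-1), and between 15.4% and 30.7% of the distal OCRs belonged to its top 25%.

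The most intense distal OCR was chr17:59967218-59968024, 807 bp wide and 954 kb from the start of its nearest protein-coding gene, Nudt12. Its fold enrichment, again in library order, was 123, 132, 179, 145, 105, 119.7 and 145 (135.7 ± 23.7, SD, n = 7). It was the highest distal OCR in 6 of 7 libraries, and its summits lay within 41 bp of each other. The exception was HPC7-1, where chr4:7391604-7391970 was highest with 144.

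That region, chr4:7391604-7391970, lay 400 kb from Tox, a gene for an HMG-box factor of T cell development. Its fold enrichment varied more between libraries than that of the other leading regions, from 77.4 in HPC7-6 over a median of 102.6 in HPC7-7 to 147 in HPC7-4 (108.5 ± 31.4, SD, n = 7). It was 367 bp wide, and its summits fell within 2 bp of each other. The other narrow leader, chr4:78513088-78513753 (119.2 ± 21.6, SD, n = 7), lay 301 kb from Ptprd, a receptor tyrosine phosphatase gene. Its summit window had 618 other positions in the genome with at least 95% identity over at least 90% of its length, and 94.1% of the region is repeat-masked, so its sequence is not shown. None of the other 9 of the 10 most intense distal OCRs had such a second position. In all, 57 distal OCRs (3.67%) had 1 or more, and 33 of them had 10 or more. How the authors' alignment treated reads that match several positions is not given in the sources used here, and its part in these values was not tested.

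The next 7 regions were wider, between 865 and 1464 bp. They were chr1:177367441-177368904 (105.1 ± 21.6, 73.4 kb from Zbtb18, a zinc finger repressor gene), chr15:8580542-8581848 (99.7 ± 21.8, 60.6 kb from Gm2310) and chr5:40882245-40883707 (94.7 ± 17.0, 744 kb from Rab28, a small GTPase gene). They were followed by chr9:61702178-61703576 (94.2 ± 17.7, 211 kb from Rplp1, a ribosomal protein gene) and chr8:28264690-28265691 (91.5 ± 15.2, 817 kb from Poteg). The last were chr8:100795961-100797095 (88.9 ± 12.6) and chr8:98065234-98066098 (88.5 ± 14.3), 1379 and 1213 kb from Cdh8, a cadherin gene. The 10 leaders did not share a motif. Of them, 6 held none of the ETS, RUNX, GATA and AP-1 letters within 100 bp of the summit, and the other 4 were those near Rab28, Poteg and Cdh8.

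At the lower end the regions stood little above the background in any library. The region chr8:114075922-114076274, 57.3 kb from Nudt7, had a mean of 3.35 and lay between 2.57 and 4.002. The region chr1:79354045-79354353, 85.7 kb from Scg2, a secretogranin gene, had a mean of 3.46 and lay between 3.09 and 3.83. The region chr4:120223097-120223984, 61.9 kb from Edn2, an endothelin gene, had a mean of 3.52 and lay between 2.91 and 4.95. None of the 7 values of any of these 3 reached the lowest value of any of the 10 leaders, a gap that follows from picking both by their mean. The plot of fold enrichment for the highest and lowest distal OCRs shows each library.

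**Figure D1:**
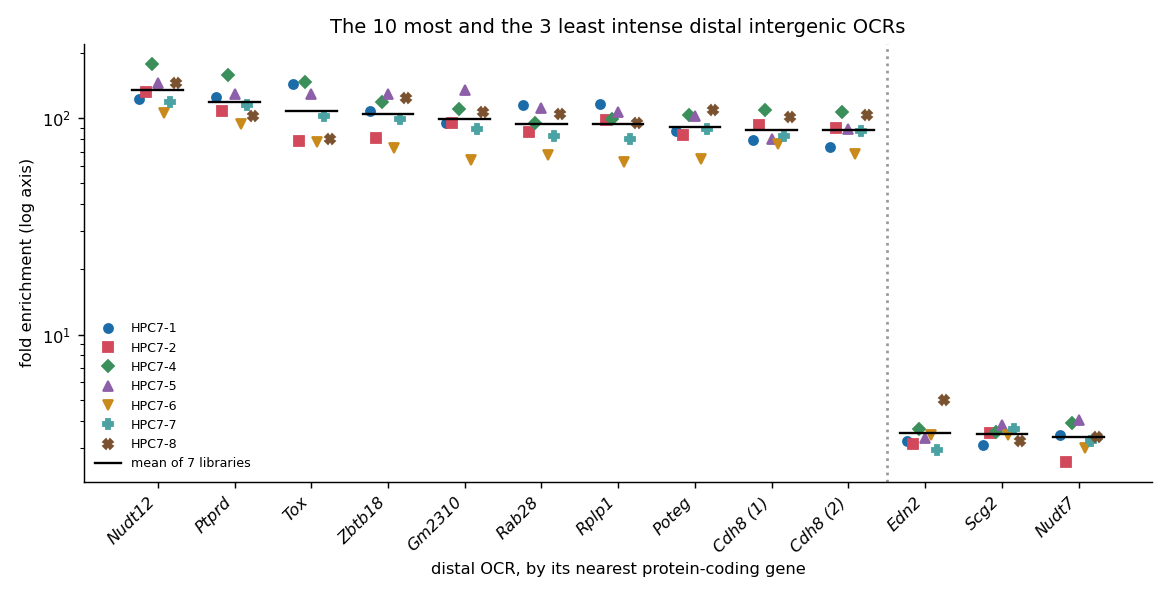
Fold enrichment on a log axis of the 10 most intense and the 3 least intense distal intergenic OCRs. Each symbol is 1 of 7 libraries, the short lines are their means, and regions are named by their nearest protein-coding gene. The 10 leaders lie between 62.9 and 178.8 and the 3 lowest between 2.57 and 4.95. Both were picked by their mean, so the gap between them follows from the choice.

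Intense distal OCRs were also the wider and the more repeatable ones. Width ran from 203 to 1482 bp with a median of 554.5 bp, and 1483 regions (95.6%) held exactly 1 peak per library. Summits of the 7 libraries lay within 100 bp of each other at 1133 regions (73.0%), with a median range of 71 bp. From the lowest 25% to the highest 25% by intensity, the median width went from 442 to 877 bp, the median summit range from 100 to 51 bp and the median coefficient of variation between libraries from 18.5% to 13.6%. The correlation of log width and log mean intensity was 0.649 over the 1552 regions, a description with no test, because both come from the same pile of reads. Between any pair of libraries the correlation of log fold enrichment over the regions lay between 0.908 (HPC7-4 with HPC7-5) and 0.966 (HPC7-1 with HPC7-5).

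Whether a distal position goes with another intensity was examined against OCRs chosen by the same measured values, shared by all 7 libraries, autosomal and under 1500 bp, but lying elsewhere. These were 14758 nearer intergenic OCRs (over 1 kb and up to 50 kb from a start), 26454 genic OCRs (inside a gene and over 1 kb from a start) and 7521 promoter OCRs (within 1 kb of a start). The median fold enrichment of promoter OCRs was above that of distal OCRs in every library, for example 12.1 against 8.52 in HPC7-1 and 7.20 against 5.95 in HPC7-6, and its mean over libraries was 10.5 against 8.32. The difference in the median log10 fold enrichment, distal minus promoter, was -0.10 ± 0.04 (SD, n = 7, lower in 7 of 7, two-sided exact permutation of the signs of the library differences, p = 0.0156, adjusted p = 0.0469 by Benjamini-Hochberg over 3 classes). With 7 libraries 0.0156 is the smallest p that this test can give. It covers the spread between libraries and not that between regions, which all libraries share. Among OCRs under 1000 bp the difference was -0.0158 and the call ended (exact permutation test, adjusted p = 0.844). Against nearer intergenic OCRs the difference was -0.017 ± 0.030 (exact permutation test, adjusted p = 0.375) and against genic OCRs -0.0075 ± 0.037 (exact permutation test, adjusted p = 0.625), both smaller than the spread between libraries.

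Distal OCRs were narrower than each other class, and the sign of the intensity differences turned with width. In the median peak width of a library they fell short of nearer intergenic OCRs by 30.9 ± 25.4 bp, of genic OCRs by 27.4 ± 29.3 bp and of promoter OCRs by 115 ± 55.7 bp (SD, n = 7). Each shortfall appeared in 7 of 7 libraries and is given without a test, because width was part of the rule. Width and intensity come from the same reads, so intensities within 4 width classes, an alternative added after seeing the data, are given without a test. There the distal OCRs stood 0.044 ± 0.029 above nearer intergenic and 0.055 ± 0.037 above genic OCRs on the log10 scale, in 7 of 7 libraries, and 0.018 ± 0.039 above promoter OCRs, in 5 of 7. The width limit also removed 9850 of 17371 shared promoter OCRs (56.7%) but only 95 of 1647 distal ones (5.77%), and with no limit the distal minus promoter difference was -0.71. The plot of intensity by class gives all libraries.

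**Figure D2:**
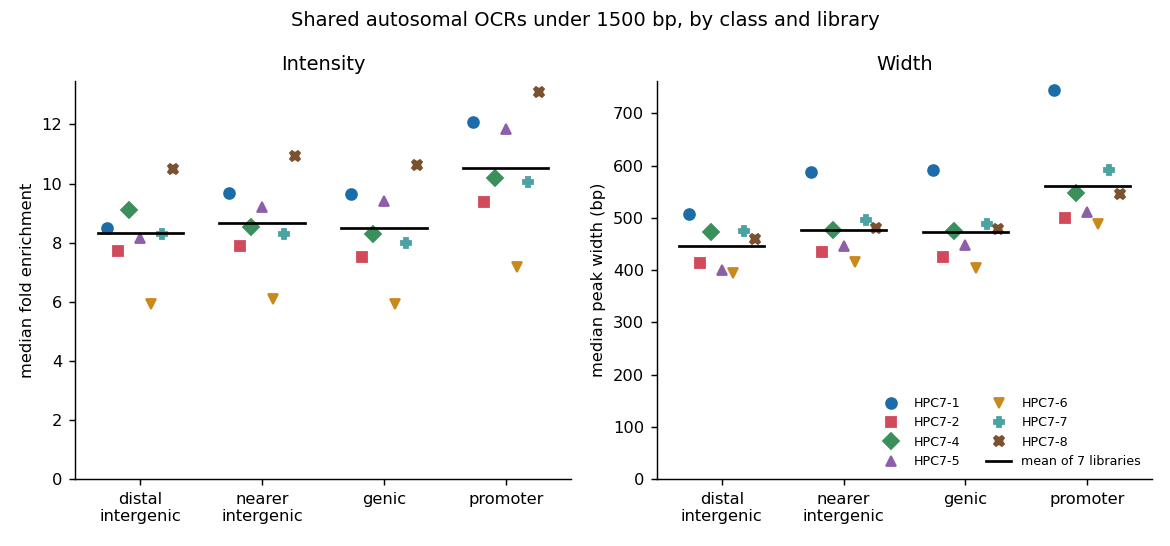
Median fold enrichment and median peak width in bp of 4 classes of OCR that are shared by all 7 libraries, autosomal and under 1500 bp. Each symbol is 1 library and the horizontal lines are means of 7 libraries. Promoter OCRs lie above distal OCRs in every library for both measures.

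A smaller share of the OCRs at distal positions than elsewhere had a peak in all libraries. Of 4420 merged autosomal OCRs under 1500 bp at such positions, with any number of libraries, 35.1% had a peak in all 7, against 40.2% of 36707 nearer intergenic, 38.1% of 69368 genic and 46.5% of 16171 promoter OCRs. These shares are descriptions, since sharing chose the members. At distal positions 856 OCRs (19.4%) came from 1 library alone and 411 from 6 libraries. The library without a peak was HPC7-5 or HPC7-6 at 177 of these each and HPC7-2 at 53, and any of the other 4 at no more than 2. The 3 libraries most often without a peak had the lowest numbers of peaks.

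Binding motifs of blood transcription factors were common at the summits. Within 100 bp of the median summit the letters AGGAAGT, a core bound by ETS factors such as PU.1 and FLI1, stood in 348 distal OCRs (22.4%), the RUNX letters TGTGGTT in 243 (15.7%) and the GATA letters AGATAAG in 141 (9.09%), on either strand. The same letters written backwards stood in 5.16%, 2.06% and 1.55%, and the motifs themselves in windows 2000 bp downstream in 5.74%, 3.995% and 2.64%. The AP-1 letters TGANTCA were in 14.2% (5.86% backwards and 6.31% downstream). The E-box CAGCTG was in 14.4% (0.193% and 6.38%) and the MEIS letters TGACAG in 22.7% (11.6% and 14.3%). The core CTCF consensus was in 110 distal OCRs (7.09%), against none with its letters backwards and 0.129% of the windows downstream. C/EBP letters TTGCNNCAA were in 2.32% (0.516% backwards and 1.87% downstream), little more than away from the summits. The SP/KLF letters GGGCGGG, which read the same backwards, were in 2.13% and in 0.387% of the windows downstream. Backwards, the E-box, C/EBP and CTCF letters contain a CG step, which is rare in the mouse genome, so for these the backwards share is low from the outset and the downstream windows are the nearer comparison. A match is a run of letters and not a bound site.

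The ETS, RUNX, GATA, AP-1, MEIS and C/EBP letters stood in a larger share of distal OCRs than of the other classes, and the E-box and SP/KLF letters in a smaller one. ETS letters were in 22.4% of distal, 19.1% of nearer intergenic, 19.1% of genic and 16.3% of promoter OCRs. RUNX letters were in 15.7%, 13.4%, 13.9% and 10.4% of these classes in the same order, and GATA letters in 9.09%, 6.37%, 6.97% and 4.89%. AP-1 letters were in 14.2%, 13.1%, 12.6% and 9.91%, and SP/KLF letters in 2.13%, 3.18%, 2.55% and 10.98%, again in that order. MEIS letters were in 22.7%, 19.5%, 21.6% and 18.2%, and C/EBP letters in 2.32%, 1.80%, 1.71% and 1.28%, in the order used above. The E-box was in 14.4% of distal, 14.7% of nearer intergenic, 15.3% of genic and 16.3% of promoter OCRs. In the windows 2000 bp downstream it was in 6.38%, 9.21%, 9.70% and 9.56% of these classes. SP/KLF letters were in 0.387%, 1.80%, 1.71% and 1.97% of those windows, so both were also rarer beside distal OCRs. ETS letters were there in 5.74%, 5.19%, 4.99% and 5.01%, and AP-1 letters in 6.31%, 6.15%, 5.64% and 5.68%. MEIS letters were there in 14.3%, 12.96%, 13.7% and 13.4%, and C/EBP letters in 1.87%, 1.65%, 1.52% and 1.53%. These letters were thus also commonest beside distal OCRs. RUNX letters were rarest there (3.995%, 5.62%, 5.30% and 5.13%), and GATA letters showed no such order (2.64%, 2.58%, 2.64% and 2.79%). CTCF matches were in 7.09% of distal OCRs, between the 9.13% of nearer intergenic and the 6.34% of promoter OCRs. These shares count regions in 1 genome and were not tested. Of the 1552 distal OCRs, 931 (59.99%) held none of the ETS, RUNX and GATA letters and 1 held all 3.

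The motifs differed in where they stood around the summit. ETS letters were most frequent in the central 25 bp, at 5.03 matches per 100 distal OCRs. CTCF matches flanked the summit instead, with 2.19 per 100 in the bin centred 25 bp before it and 2.38 in the bin 25 bp after it, against 0.709 at the summit itself. The plot of motif position shows both.

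**Figure D3:**
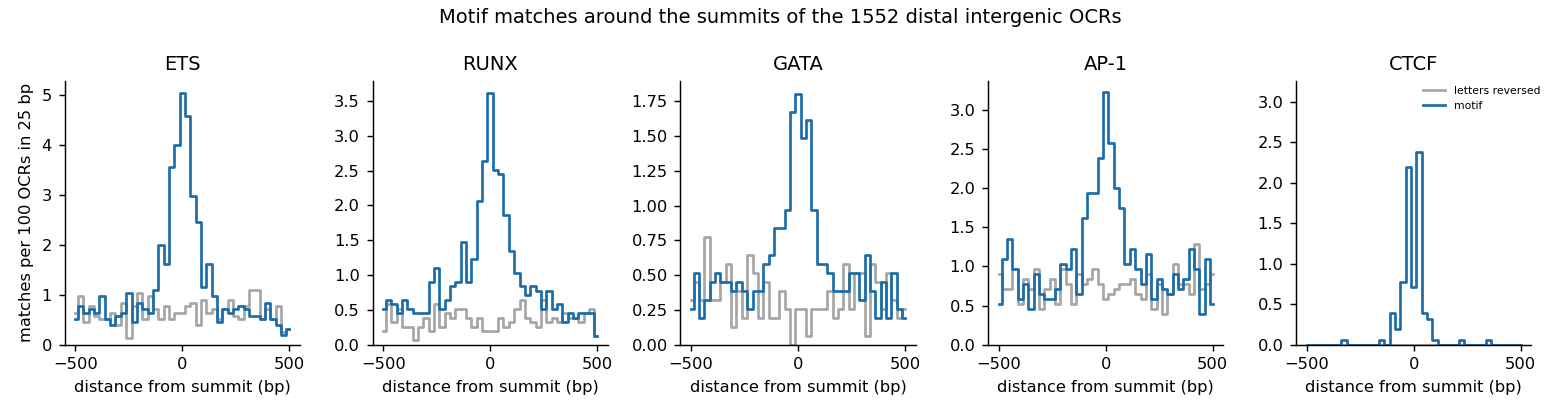
Matches per 100 OCRs in bins of 25 bp against the distance of the match from the summit in bp, for distal OCRs and for the letters backwards. ETS letters peak at the summit, and CTCF matches peak on both sides of it.

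Distal OCRs with GATA letters were the more intense ones. Their median fold enrichment was above that of the distal OCRs without them in every library, from 8.29 against 5.95 in HPC7-6 to 14.1 against 10.3 in HPC7-8, and over the means of the regions it was 10.97 against 7.99. The log10 difference was 0.135 ± 0.008 (SD, n = 7, two-sided exact permutation of signs, adjusted p = 0.0469 over 9 motifs). AP-1 letters went with a difference of 0.046 ± 0.022, higher in 7 of 7 libraries (exact permutation test, adjusted p = 0.0469), but without HPC7-6 it was 0.029 and the call was lost (exact permutation test, p = 0.0625, adjusted p = 0.0938). ETS and RUNX letters, at 0.031 ± 0.022 and 0.030 ± 0.016, were higher in 6 of 7 libraries and missed the threshold (exact permutation test, adjusted p = 0.0563 for both). Distal OCRs with a CTCF match were lower in 7 of 7 libraries, by 0.061 ± 0.047 (exact permutation test, adjusted p = 0.0469). On the log10 scale the largest difference was 6.22 against 8.70 in HPC7-1 and the smallest 5.79 against 6.02 in HPC7-6. The CTCF call too was lost without HPC7-6, at -0.046 (exact permutation test, p = 0.0938, adjusted p = 0.121), and without HPC7-1 and HPC7-5 the value was -0.036.

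Width moved with these motifs too. Distal OCRs with GATA letters had a median width of 690 bp against 542 bp without, and those with a CTCF match 482 against 567 bp. Within width classes, again without a test, the GATA difference was 0.024 ± 0.019 and higher in 6 of 7 libraries. From the narrowest class to the widest it was -0.0007, 0.0075, 0.084 and 0.0055, so the class of 555 to 788 bp carried it. The same class carried the RUNX difference, at 0.012, -0.019, 0.094 and -0.0089. The AP-1 difference (-0.019, 0.011, 0.048 and 0.128) and the ETS difference (-0.017, -0.019, 0.038 and 0.138) lay in the wider classes and were below 0 in the narrowest. The mean CTCF difference over the classes was -0.020 ± 0.044. Distal OCRs with SP/KLF letters were lower by 0.091 ± 0.034 and those with an E-box by 0.034 ± 0.012 within width classes, each in 7 of 7 libraries. Without regard to width, E-box, SP/KLF, MEIS and C/EBP letters missed the threshold of the test with all 7 libraries. E-box, SP/KLF and C/EBP letters passed it without HPC7-7 (exact permutation test, adjusted p = 0.0402) or HPC7-8 (exact permutation test, adjusted p = 0.0469). Without HPC7-5, the C/EBP, ETS and RUNX letters passed it (exact permutation test, adjusted p = 0.0469). With each library left out in turn, ETS letters passed in 2 of 7 sets and RUNX letters in 1. Without HPC7-7 the SP/KLF difference was -0.059, against -0.025 with all. The test covers the spread between libraries only, because all libraries share the same regions.

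**Figure D4:**
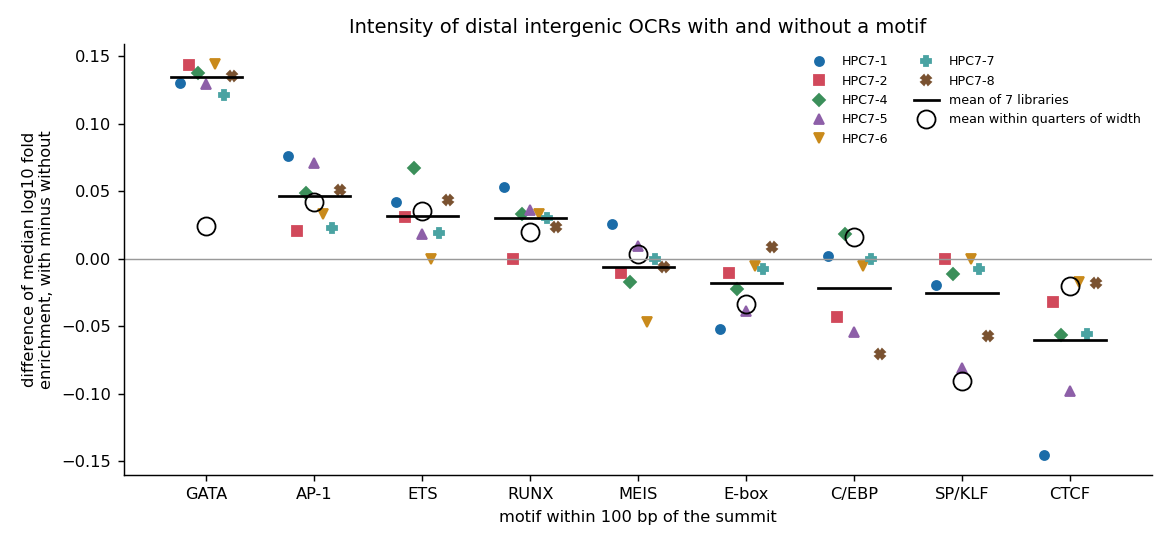
Difference in median log10 fold enrichment between distal OCRs with and without each motif. Each symbol is 1 library, the short lines are means of 7 libraries, and open circles are means of the differences within 4 width classes. GATA and AP-1 lie above 0 and CTCF below 0 in all 7 libraries.

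The share of distal OCRs with a motif shifted along the intensity range. In 4 steps of equal number from the lowest intensities to the highest, the share with GATA letters was 6.19%, 6.96%, 9.28% and 13.9%. ETS letters stood out in the highest step alone, at 20.4%, 20.9%, 19.3% and 29.1%, and RUNX letters were at 12.4%, 16.5%, 14.9% and 18.8%. CTCF matches ran the other way at the top, with 7.47%, 10.6%, 7.22% and 3.09% in the 4 steps. MEIS letters showed no such trend, at 26.3% in the lowest and 23.7% in the highest step. The most intense distal OCR with a CTCF match, chr3:115660744-115661628, had a mean of 48.0 ± 9.20 (SD, n = 7) and lay 53.4 kb from S1pr1, a sphingosine 1-phosphate receptor gene of lymphocyte and progenitor traffic. That value is below every one of the 10 leaders.

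Over the autosomes 371.1 Mb of sequence (15.5%) could have held a distal OCR by position, and the 1552 regions came to 4.18 per Mb of it. Chromosome 17 had the highest density, with 72 regions and 6.23 per Mb, and chromosome 3 the lowest, with 79 regions and 2.51 per Mb. Relative to the median autosome these densities were 1.47 and 0.592, and the density of all shared OCRs was 1.63 and 0.721 on the same chromosomes, so both lay on the same side there. Density and intensity ranked the chromosomes differently. Distal OCRs of chromosome 3 were more intense than those of the other autosomes, by 0.071 ± 0.026 on the log10 scale, as were those of chromosome 10 (0.047 ± 0.014) and chromosome 16 (0.081 ± 0.018). Those of chromosomes 7, 18 and 19 were less intense, by 0.054 ± 0.025, 0.030 ± 0.010 and 0.038 ± 0.026. Each of these 6 differences appeared in 7 of 7 libraries (two-sided exact permutation of signs, adjusted p = 0.0495 over 19 autosomes). All libraries share the same regions of a chromosome, so the test covers the spread between libraries and not that between regions. At the 75th percentile in place of the median, the difference of chromosome 18 turned to 0.0061 (exact permutation, adjusted p = 0.768), and 12 autosomes passed the threshold. The call of chromosome 19 was lost without HPC7-1 (exact permutation p = 0.0625) or HPC7-2 (exact permutation p = 0.125), and that of chromosome 7 without HPC7-6 (exact permutation p = 0.0625). Median width moved with them, at 607, 587 and 613 bp on chromosomes 3, 10 and 16 and 499, 518 and 495 bp on 7, 18 and 19, and its part in the result was not tested.

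Most distal OCRs were far from protein-coding genes. The median distance to the nearest protein-coding start was 145.5 kb and the longest 2140 kb, with 549 regions (35.4%) under 100 kb, 213 (13.7%) over 500 kb and 59 (3.80%) over 1 Mb. The nearest start of any gene was protein-coding at 416 regions (26.8%), and elsewhere a noncoding gene or pseudogene. In all, 729 protein-coding genes were the nearest one to 1 or more distal OCRs, which is 3.51% of 20780 autosomal protein-coding genes. The regions were unevenly spread over these genes: 394 genes had 1, and 70 genes with 5 or more held 477 regions (30.7%). The nearest gene is given as a landmark, and nothing in these data ties a region to the gene it controls.

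Genes with an open promoter were nearest to more of the distal OCRs than their share of the available sequence. Of 20780 autosomal protein-coding genes, 12020 (57.8%) had a promoter OCR in all 7 libraries, and such genes were nearest to 993 of 1552 distal OCRs (64.0%). The sequence where a distal OCR could lie belonged to these genes for 40.8% of its length, so the density was 6.56 per Mb near genes with an open promoter and 2.55 per Mb near the others. The median intensity was higher near genes with an open promoter in 6 of 7 libraries, by up to 0.067 on the log10 scale in HPC7-5 (8.53 against 7.31) and 0.066 in HPC7-1 (8.98 against 7.72). It was lower in HPC7-4 (8.99 against 9.35), and this difference was not tested.

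The genes nearest to most distal OCRs were Tox and Efna5, with 13 each, followed by Cdh9 and Fam49a (12), St3gal1 (11), and Cd47, Rab28, Robo2 and Vstm2a (10), of which the last was left out by its name to keep 8. Around Efna5, an ephrin ligand gene on chromosome 17, the 13 regions ran from 4.85 to 77.8 in mean fold enrichment and from 92.7 to 1406 kb in distance. Around Tox they lay from 146 to 494 kb away, and the 13, the leader chr4:7391604-7391970 included, had a median of 8.42. Cd47 encodes a surface signal that restrains phagocytosis, and its most intense region, chr16:49951525-49952784, had a fold enrichment between 45.8 in HPC7-6 and 94.0 in HPC7-1 (70.4 ± 17.9, SD, n = 7). Each of the 8 had an open promoter in every library, as did 57.8% of all genes. They differed in the sequence that could hold such regions, since Cdh9, a cadherin gene, had 1.66 Mb of it and 7.24 regions per Mb, whereas Cd47 had 0.144 Mb and 69.3 per Mb.

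Among transcription factors of stem and progenitor cells, 7 of 28 autosomal genes were nearest to a distal OCR. Among genes with sequence where a distal OCR could lie, this was 58.3% of 12, against 29.9% of 2438 over all protein-coding genes. The 7 genes had 25 regions, 21 of them near Runx1, Zeb2 and Mycn. Their median fold enrichment was 14.0 and their median width 730 bp, where all distal OCRs had 8.16 and 554.5 bp. Runx1, which is required for the emergence of blood stem cells, had 8, and the most intense of them, chr16:93152302-93153722, stood 326 kb from its start with a fold enrichment between 49.6 (HPC7-6) and 78.7 (HPC7-8), a median of 65.95 (HPC7-5) and a mean of 65.5 ± 10.7 (SD, n = 7). Zeb2, a zinc finger repressor gene, also had 8, of which chr2:45974735-45976100 reached 49.3 ± 10.6 at 857 kb. Mycn, a MYC family gene, had 5, and the highest, chr12:12601298-12602158, reached 53.7 ± 11.7 at 338 kb. Erg, Etv6, Hlf and Tcf4 had 1 each, between 5.14 ± 0.53 for Etv6 and 11.7 ± 2.62 for Erg.

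Lineage transcription factor genes gave 6 of 33, or 40% of the 15 with such sequence against 29.9% over all genes. They had 26 regions with a median fold enrichment of 8.88. Tox accounted for 13 of them. Runx3, a RUNX factor of T cells, had 7 between 58.7 and 89.0 kb from its start, the highest at 23.0 ± 5.52. Gata3, a GATA factor of T cells, had 3, and chr2:9687887-9688835 reached 51.4 ± 10.9 at 185 kb, with 32.4 in HPC7-6 and 64.3 in HPC7-4 as the extremes. Bcl11a and Ets1 had 1 each, at 6.52 and 4.96. Of the 33 genes, 25 (75.8%) had a promoter OCR in every library, against 57.8% of all genes.

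Receptor and surface protein genes gave 7 of 30, or 87.5% of the 8 with such sequence, against 29.9% over all genes. They had 34 regions with a median fold enrichment of 7.52. Kit, the receptor for the stem cell factor in which the cells grow, had 6 between 70.7 and 124 kb from its start. Their means were modest, from 4.37 to 16.9, and the highest, chr5:75503654-75504234, lay between 12.8 (HPC7-6) and 25.3 (HPC7-8) with a median of 14.3. Cxcr4, a chemokine receptor that holds progenitors in the marrow, had 6, with a highest mean of 13.4 ± 3.93. Tlr4, the receptor for lipopolysaccharide, had 7, up to 14.7 ± 3.75. Itga4, an integrin gene, and Cd44, a hyaluronan receptor gene, had 2 each, up to 29.2 ± 6.55 and 29.1 ± 4.44. The single region of Tgfbr2, a TGF-beta receptor gene, was higher than the highest of any other gene of the list except Cd47, at 42.4 ± 7.52 and 208.5 kb away.

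Signalling and growth control genes gave 5 of 33, or 62.5% of the 8 with such sequence, against 29.9% over all genes. They had 14 regions, with a median fold enrichment of 10.3 and a median width of 821.5 bp. The most intense one, chr7:145024973-145026427, stood 85.1 kb from Ccnd1, which encodes cyclin D1, with fold enrichments of 86.1, 70.0, 77.4, 89.3, 51.0, 65.4 and 84.6 in library order. It exceeded the next region in every library. That region, chr8:34748189-34749291, lay 58.0 kb from Dusp4, a MAP kinase phosphatase gene, at 52.9 ± 8.24. Jun had 4 up to 15.2 ± 2.14, and Spry2 had 1 at 4.40 ± 0.53. Of 30 genes for developmental factors of other tissues, 14 had sequence where a distal OCR could lie, 3.23 Mb in all. None of them was nearest to a distal OCR, against 29.9% of all genes with such sequence, which had 4.18 regions per Mb. Of the 30 genes, 7 (23.3%) had a promoter OCR in every library, against 57.8% of all genes.

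The study listed transcriptionally active putative enhancers, which are intergenic OCRs with RNA from both strands. They overlapped 7 distal OCRs (0.451%) and 84 nearer intergenic OCRs (0.569%). The most intense were chr14:65515914-65517016, 76.0 kb from Elp3, at 43.4 ± 7.57, and chr2:71651898-71652963, 92.7 kb from the integrin gene Itga6, at 41.9 ± 8.65. Those at chr17:83576829-83577621 near Kcng3, chr2:9681418-9682263 near Gata3 and chr14:97559409-97560017 near Dach1 had means of 26.4, 19.4 and 18.5. The weakest, chr1:55812331-55812948 near Plcl1, had 6.50 ± 0.92. The last, chr18:14103172-14103509 near Zfp521, had 10.4 ± 2.42, is 82.8% repeat-masked and had 35 other near-identical positions.

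Distal OCRs often came in runs. With neighbours joined over gaps of up to 12.39 kb, the longest gap within the limit that was set, 646 regions (41.6%) had a neighbour and 906 were alone, against a median gap of 141.7 kb between successive regions. There were 248 runs of 2 or more and 77 of 3 or more, which held 304 regions. Regions with a neighbour were more intense in every library, from 6.57 against 5.79 in HPC7-6 to 11.5 against 10.2 in HPC7-8, by 0.058 ± 0.032 on the log10 scale (SD, n = 7, two-sided exact permutation of signs, p = 0.0156). This test too covers the spread between libraries only, since all of them share the same regions. Regions with a neighbour were also wider, with a median of 622.5 against 520 bp. Within width classes the difference was -0.0031 ± 0.019, higher in 3 of 7 libraries and given without a test. The classes went opposite ways, from narrow to wide at -0.034, -0.020, 0.023 and 0.019.

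In each of the 5 runs described here, those with most regions, a few intense regions stood among weak ones. The run with most regions, chr2:102972561-103019486 between Cd44 and Pdhx, had 10 over 46.9 kb with means from 4.88 to 29.1. It held 3 regions with ETS letters and none with RUNX or GATA letters. The run chr9:61663920-61708428 near Rplp1 had 8 regions from 4.72 to 94.2, the second highest of them at 55.3. The run chr12:12561416-12602158 between Fam49a and Mycn had 8 from 5.40 to 65.5, with others at 58.9 and 53.7, and 4 of its regions held ETS and 3 RUNX letters.

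The remaining 2 lay on chromosome 16. The run chr16:74504351-74530970 near Robo2, a receptor of axon guidance, had 8 regions from 4.62 to 41.9 within 26.6 kb. The run chr16:49951525-50010011 near Cd47 had 7 from 6.06 to 70.4, with a further intense one at 51.7 and the other 5 at 14.7 or below. Another 2 runs also had 7 regions, chr6:143348401-143384016 near Etnk1 with means up to 67.2 and chr7:145077497-145107112 with means up to 28.9. The run near Cd47 was taken from these 3 because its most intense region was the highest. The same region of a run was highest in 7 of 7 libraries in 4 of the 5 runs and in 6 of 7 in the run near Fam49a. The plot of runs shows the spacing.

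**Figure D5:**
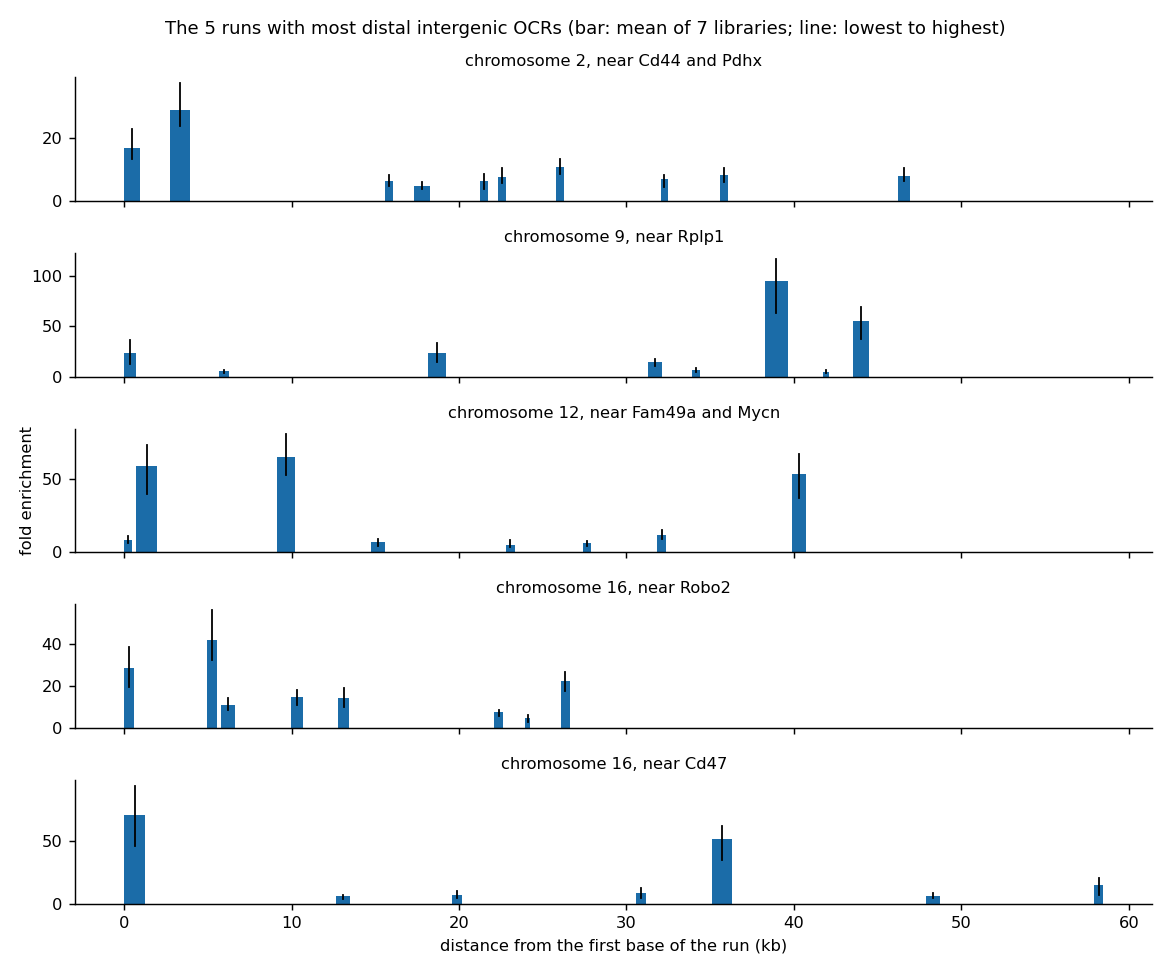
Fold enrichment against the distance in kb from the first base of the run, for the 5 runs with most distal OCRs, each panel with its own vertical scale. A bar is the mean of 7 libraries and as wide as its region, and a thin line joins the lowest and the highest library. The highest region of a run lies between 29.1 (near Cd44) and 94.2 (near Rplp1), and the lowest between 4.62 and 6.06.

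Regions of similar width and distance lay on either side of the limits of the rule. The widest region inside was chr6:143348401-143349882, 1482 bp with a mean of 67.2, and the narrowest left out by width was chr1:143318999-143320500, 1502 bp with a mean of 85.1. The region nearest to a start inside was chr12:71998381-71999192, 50067 bp away with a mean of 19.01. The farthest left out by distance was chr8:34756853-34757297, exactly 50000 bp away with a mean of 5.95.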

How the data were processed

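The 7 libraries were bulk ATAC-seq of HPC7 cells. For every library on its own, the authors used Cutadapt for trimming, BWA-mem for alignment against mm10 and MACS2 for peaks. Versions and options are not given in the sources used here. Each deposited list gives, per peak, a fold enrichment, −log10 p and q values, a score made from the q value, and the summit offset. The fold enrichment is the ratio of reads at the summit to a background, after the addition to each that is described above. No normalization between libraries beyond the background is described in the sources used here. In each library fold enrichments rose in steps of a single size, from which the reads at a summit were derived.

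Peaks overlapping by 1 bp or more were merged, and the highest fold enrichment of a library in a merged OCR was its intensity there. Genes and transcript starts came from GENCODE M21 (141767 starts). Each library's median log10 fold enrichment was compared by an exact two-sided sign-flip permutation over the libraries (128 patterns) with Benjamini-Hochberg adjustment within a family (a planned test of width is not reported, since width was part of the rule), at an adjusted p of 0.05. Motifs were searched on both strands within 100 bp of the median summit and matches of different motifs may overlap. Neighbours were joined at gaps of up to 12.5 kb. Near-identical positions were found with blastn 2.17.0 (95% identity over 90% of 201 bp). Sequences were read from RefSeq's GRCm38. Positions of the study's putative enhancers were used for overlap only.

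The members, gene lists and motifs were chosen with earlier results of these data known. Regions named are the 10 highest and 3 lowest by mean fold enrichment, those just inside and outside the limits, the 5 runs with most regions (ties by their highest mean), the 8 genes with most regions (ties by name), up to 8 genes per list with their most intense region, every overlap with a putative enhancer, and the densest and sparsest chromosome. Of the 8 sequences this rule gives, 1 repeat was left out, and some genes of the lists are not reported here. Alternatives were other peak sets, distances, width limits, gene sets, units, windows and joining distances, and each library left out in turn. Merging, overlap and distance gave the results of bedtools 2.31.1 on simulated intervals. The work used numpy 2.4.6, pysam 0.24.0, pandas 2.3.3, matplotlib 3.10.9 and scipy 1.17.1 under Python 3.11.15.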

Additional observations from a re-analysis of the deposited data

Results flagged for a closer look

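In 94 measures over the 7 libraries, Dixon's criterion set 1 library apart in 4, and chance alone sets 1 library apart in about 1 of 20 groups. The median peak width of promoter OCRs was 744 bp in HPC7-1, and between 488 and 591 bp in the other libraries. The width difference between distal and promoter OCRs was -237 bp in HPC7-1, against -117 to -75.5 bp elsewhere. HPC7-1 had the most reads at the summits. The region chr4:120223097-120223984 near Edn2 had a fold enrichment of 4.952 in HPC7-8 and between 2.912 and 3.668 in the others. The region chr9:33095614-33096023, the only distal OCR nearest to Ets1, had 8.156 in HPC7-8 and between 3.306 and 5.387 in the others. No difference of an effect between groups was examined, since the libraries form 1 group.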

How the results depend on the processing

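No paired analysis was run, because the labels give 1 group. Inside the lists, peak names number libraries within each prefix, and of the 3 pairs that share a number, HPC7-1 with HPC7-5 was the most alike of all pairs (0.966), whereas HPC7-2 with HPC7-6 (0.946) and HPC7-4 with HPC7-8 (0.941) were below several others, such as HPC7-7 with HPC7-8 (0.959). The sign permutation takes the 7 libraries as independent and makes no allowance for such pairs. Without HPC7-1 and HPC7-5 the differences were -0.079 for distal minus promoter, 0.012 for distal minus genic and -0.0020 for distal minus nearer intergenic. For GATA, AP-1, CTCF and regions with a neighbour they were 0.136, 0.035, -0.036 and 0.042. The number of distal OCRs was 5163 with a distance over 20 kb, 419 over 100 kb and 6108 with protein-coding genes only, and between 1553 and 1733 when a library was left out. Under 1000 bp the distal minus promoter intensity difference was -0.0158 (exact permutation test, adjusted p = 0.844). Without a width limit the distal minus nearer intergenic difference was -0.036 (exact permutation test, adjusted p = 0.0469). Widths of merged OCRs gave differences of -78.5, -77.5 and -238.5 bp from nearer intergenic, genic and promoter OCRs. Within 4 width classes, added after seeing the data, the intensity differences were 0.0438, 0.0550 and 0.0183, those of ETS, RUNX, E-box, SP/KLF and CTCF 0.0349, 0.0197, -0.0338, -0.0907 and -0.0201, and that of regions with a neighbour -0.0031. With motifs searched in the whole merged OCR the differences were 0.0483 for ETS, 0.0825 for RUNX, 0.0504 for E-box, 0.0551 for MEIS, 0.0850 for C/EBP and 0.0275 for SP/KLF, where a longer OCR has more places for a match. With letters reversed they were 0.0242 for GATA and -0.0243 for AP-1, but 0.039 for ETS, above the value of the motif itself, and -0.060 for C/EBP (exact permutation test, adjusted p = 0.0547 for both). At the 75th percentile 12 autosomes passed, and chromosome 18 turned to 0.0061. Joined within 5 kb, 405 regions had a neighbour. The causes of these changes were not tested.

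With 6 libraries the smallest exact p is 0.0312, so most calls lost when a library was left out were at that floor and say nothing about stability. Above the floor were the losses without HPC7-6 for CTCF (p = 0.0938), AP-1 (p = 0.0625) and chromosome 7 (p = 0.0625), and for chromosome 19 without HPC7-1 (p = 0.0625) or HPC7-2 (p = 0.125), all in exact permutation tests. Leaving out 1 library gave between -0.140 and -0.100 for distal minus promoter intensity and between -33.3 and -22.6 bp for width against genic OCRs. For distal minus nearer intergenic intensity the range was -0.0298 to -0.0146, and for distal minus genic -0.0227 to -0.0024. By prefix, the distal minus promoter difference was -0.095 in the VD and -0.106 in the EtOH libraries. For the motifs the ranges were 0.0292 to 0.0420 (ETS), 0.0174 to 0.0531 (RUNX), 0.130 to 0.152 (GATA), 0.0291 to 0.0646 (AP-1), -0.0310 to -0.0105 (E-box), -0.0158 to 0.0115 (MEIS), -0.0428 to -0.0259 (C/EBP), -0.0587 to -0.0045 (SP/KLF) and -0.0816 to -0.0457 (CTCF). Of the other alternatives with a test, 34 of 36 class comparisons, 17 of 25 motif comparisons and 11 of 19 chromosome comparisons neither gained nor lost a call nor turned a called direction. Differences without a call did change sign, such as distal minus genic with protein-coding genes only (0.0107) and C/EBP within 50 bp (0.034). Intensities rest on 37 to 181 reads at the median summit, so low regions of HPC7-6 and HPC7-2 are the least precise.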
